A study of Caenorhabditis elegans with 8 samples.

Results

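The sites described here are the places on the C. elegans genome where DAF-16, the only FOXO factor that the worm has, gave a tall ChIP-seq peak both in wild-type worms and in worms with reduced insulin/IGF-1 signalling (IIS). Each WT peak that overlapped a daf-2(-) peak by at least 1 bp was paired with the overlapping daf-2(-) peak whose summit lay nearest, and the pair was called tall when the height of the summit, the tag pileup at the highest point of the peak, was 150 or more in both lists. This kept 443 of 4717 shared pairs, or 9.39%. The other 4274 shared pairs were the set for comparison. Because the height chose the members, heights, fold enrichments and tag numbers are given below as a description, and position and gene class are the measures that the choice did not use. Summit distance was used only where a WT peak had several partners.

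DAF-16 sits at the end of the insulin pathway. When the receptor DAF-2 is active, AKT kinases phosphorylate DAF-16 and keep it in the cytoplasm, and when the receptor is impaired more DAF-16 enters the nucleus, where it binds the FOXO core GTAAACA and regulates genes of stress resistance, metabolism, dauer formation and lifespan. A site that is tall in both strains is therefore one with strong enrichment at high and at low signalling through this pathway, and its state under other conditions was not measured.

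Worms of 4 genotypes were used, namely N2 as the wild type (WT), daf-2 (e1370), which carries a mutation in the insulin/IGF-1 receptor, and as strains without functional DAF-16 daf-16(mgDf50) and the double mutant daf-16(mgDf50);daf-2(e1370). All worms were mixed-stage cultures held at 20 °C, and the antibody recognised the endogenous protein rather than a tagged transgene. Each strain had 1 ChIP and 1 input library, 8 in all, made from chromatin pooled over several biological replicates, so there is no spread between replicates, no p-value is given, and every interval below covers counting error over peaks or genes only. Peaks coinciding with those of the matching DAF-16-null strain had been left out of the lists by the authors. In chromatin of whole mixed-stage worms, binding in more cells and stronger binding per cell cannot be told apart. The WT list held 5396 peaks, of which 976 (18.1%) reached 150, and the daf-2(-) list held 6859, of which 516 (7.52%) did. The deposited heights are not scaled to the reads of each library, so the same height need not mark the same strength in both.

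The study's ChIP-qPCR primers covered 10 regions, and 2 of these belonged to genes with a tall pair: sqrd-1, which encodes a sulfide:quinone oxidoreductase, on chromosome IV, and bcmo-2, a β-carotene oxygenase gene on chromosome II. They are shown because their primers are the designed sequences named for genes with tall sites, with the FOXO core or its reverse complement in capitals. C08E8.4, on chromosome V, whose tallest shared pair reached only 111 in the weaker list, is shown beside them as a gene with a lower pair and the same core in a primer.
sqrd-1 forward: tcagaggtggaggctgtttg
sqrd-1 reverse: tcaccggGTAAACAagacgc
bcmo-2 forward: gaccccgtcacaaactcctt
bcmo-2 reverse: tcctctcgtagaaggcagaga
C08E8.4 reverse: tgacctTGTTTACtgcctcct
Of the 20 primers, 2 held the core on either strand, the reverse primers of sqrd-1 and C08E8.4. The core was thus found in a primer of a gene with a tall pair and of a gene with a lower pair. Primers were matched to pairs by gene name, and whether they lie inside the peaks was not checked. Where the core is missing, only these primer letters were searched.

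On the deposited heights most tall WT peaks were not tall in daf-2(-), while most tall daf-2(-) peaks were tall in WT. Of the 976 WT peaks of 150 or more, 443 (45.4%) were in a tall pair and 533 (54.6%) had a daf-2(-) partner below the limit, with a median partner height of 116 and a range from 41 to 149. None of them (0 of 976) lacked a daf-2(-) partner. Of the 516 tall daf-2(-) peaks, 442 (85.7%) were in a tall pair, 25 (4.84%) overlapped WT peaks without making one, and 49 (9.5%) had no WT partner. The number is 442 and not 443 because 2 neighbouring WT peaks on chromosome X, assigned to linc-103 and to the non-coding gene W05H9.3, shared 1 long daf-2(-) peak of height 276.

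**Figure D1:**
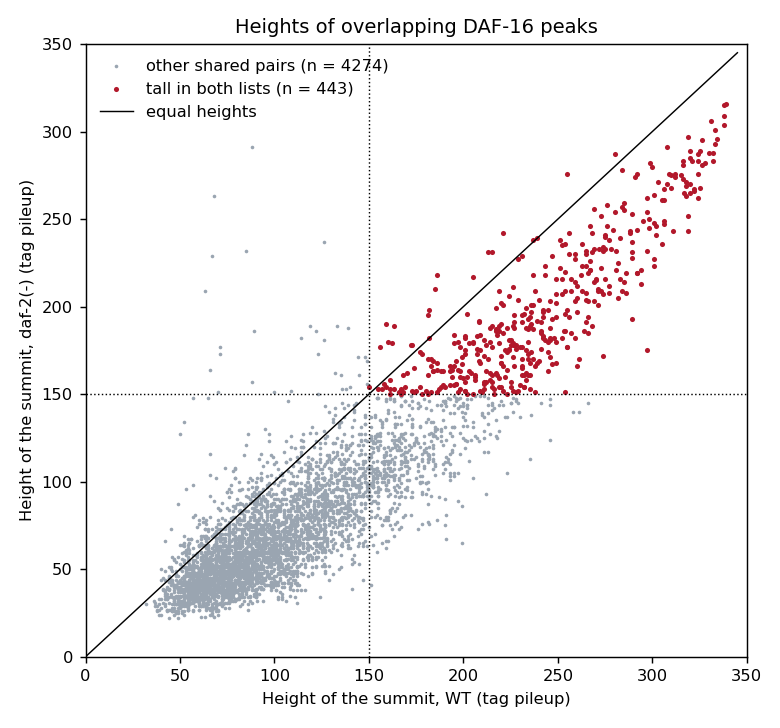
Height of the summit in WT (x axis, tag pileup) against that in daf-2(-) (y axis, tag pileup) for each of the 4717 shared pairs, with the 443 tall pairs in red, the other 4274 in grey, dotted lines at 150 and a line of equal heights. The tall pairs run up to 339 in WT and 316 in daf-2(-), and on these unscaled heights 422 of the 443 lie on the WT side of the line, a share that turns with the scaling.

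Among the tall pairs the WT height had a median of 237 (quartiles 211 and 274, highest 339) and the daf-2(-) height a median of 189 (quartiles 167 and 230, highest 316). The WT peak was the taller in 422 of 443 pairs (95.3%), against 93.2% of the other pairs. The log2 ratio of the daf-2(-) to the WT height had a median of -0.27 in tall pairs, with a range from -0.76 to 0.26, and of -0.57 in the others. A limit of 150 in both lists, with highest values of 339 and 316, bounds this ratio in tall pairs. Its difference from the other pairs is therefore no result. Which strain was the taller depended on the scaling. With the daf-2(-) heights scaled to the WT library by aligned reads, the WT peak was the taller in all 443 tall pairs, and with scaling by the tags inside all peaks of each list it was so in 170 (38.4%), with median log2 ratios of -0.56 and 0.05. Applied to the limit of 150, these scalings left 250 and 677 tall pairs. Both were chosen after the data were seen, and no direction between the strains is drawn from the heights. Many heights lay close to the top of their list, with 50 of the WT and 18 of the daf-2(-) peaks in tall pairs within 10% of the highest value. How duplicate tags were treated is not given in the sources used here. Fold enrichment over the input had a median of 27.1 in WT (range 14.1 to 43.2) and of 24.9 in daf-2(-) (14.7 to 43.2). The tall pairs held 20.2% of all tags inside WT peaks and 18.8% of those inside daf-2(-) peaks.

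The tallest site of all by the smaller of its heights was assigned to F22B7.9 at chrIII:8653163-8658851 (WS230), with 339 in WT and 316 in daf-2(-). M01H9.6, a non-coding gene between the coding genes M01H9.3 and M01H9.10 on chromosome IV, had 338 and 315. oga-1, which encodes the enzyme that removes O-linked N-acetylglucosamine from proteins, had 338 and 309 at chrX:9347172-9348268. These 3 sites were thus near the top of both lists.
R05D7.2 on chromosome I had 331 and 306, and linc-90, a long non-coding RNA gene between gei-4 and pll-1 on chromosome III, had 338 and 304. lea-1, a late embryogenesis abundant protein gene known from desiccation tolerance, had 319 and 297, with its WT peak centred 15 bp upstream of the TSS. zip-1, a bZIP transcription factor gene, had 334 and 296 at 264 bp upstream. tts-1, a long non-coding RNA gene, had 320 and 289 at 3 bp upstream, and cyn-7, a cyclophilin gene, had 330 and 288 at 171 bp downstream. The remaining 6 of the 15 tallest were Y37A1B.330, T28F4.5, F07H5.5, ZC443.8, F54F12.6 and W07A8.2, which spanned 308 to 333 in WT and 288 to 301 in daf-2(-). In these 15 sites the daf-2(-) height was between 0.87 and 0.94 of the WT height. Ranking by the smaller height near the top of both lists holds this ratio close to 1.

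The limit of 150 cut through a continuous range of heights. Just inside it were T01G9.2 with 167 in WT and 150 in daf-2(-), Y54G2A.11 with 161 and 150, and C39F7.8 with 150 and 154. Just outside were sod-2, the mitochondrial superoxide dismutase gene, with 211 and 149, the ubiquitin-conjugating enzyme gene ubc-8 with 209 and 149, and the mitochondrial ribosomal protein gene mrpl-51 with 206 and 149.

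Tall sites lay at their genes in nearly the same places as the other shared sites. The WT peak centre fell 0 to 0.5 kb upstream of the assigned TSS in 175 of 443 tall pairs (39.5%, 95% Wilson interval 35.1 to 44.1) and in 37.1% of the others, a difference of 2.40 percentage points (95% Newcombe interval -2.28 to 7.24). With the gene and distance of the daf-2(-) list it was 177 of 443 against 38.3%. Centres upstream at any distance made up 67.3% and 66.8%. The difference at the TSS did depend on the limits and the scaling. It was 6.39 points (3.13 to 9.68) with heights of 100 or more and 6.33 points (2.56 to 10.16) when height was replaced by a fold enrichment of at least 15. Without peaks of 2 kb or longer it was 6.12 points (0.67 to 11.7), and with the distance taken from the summit -1.86 points (-6.41 to 2.93). With daf-2(-) heights scaled by tags inside peaks it was 5.045 points (1.09 to 9.07), and by aligned reads 0.70 points (-5.26 to 7.02).

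Away from the promoter, 100 tall pairs (22.6%) were centred 0.5 to 2.5 kb upstream and 25 (5.64%) farther upstream. A further 70 (15.8%) lay in the first 0.3 kb of the gene and 44 (9.93%) beyond its end. Deep positions inside the gene were a little less frequent, with 29 tall pairs (6.55%) against 9.41% of the others, a difference of -2.86 points (-5.01 to -0.04). Many shares were compared, this interval only just left out no difference, and the share was not recomputed under other settings. The farthest upstream site belonged to nhr-1, a nuclear hormone receptor gene, at 9104 bp from its TSS, with heights of 232 and 161. daf-12, the steroid hormone receptor gene that governs the dauer decision, had its tall site 6824 bp upstream, with 261 and 170. The tall sites of nhr-1 and daf-12 were thus far from the assigned TSS, and other starts of these genes were not examined. Some other receptor genes, such as nhr-35, had theirs within 0.5 kb upstream.

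**Figure D2:**
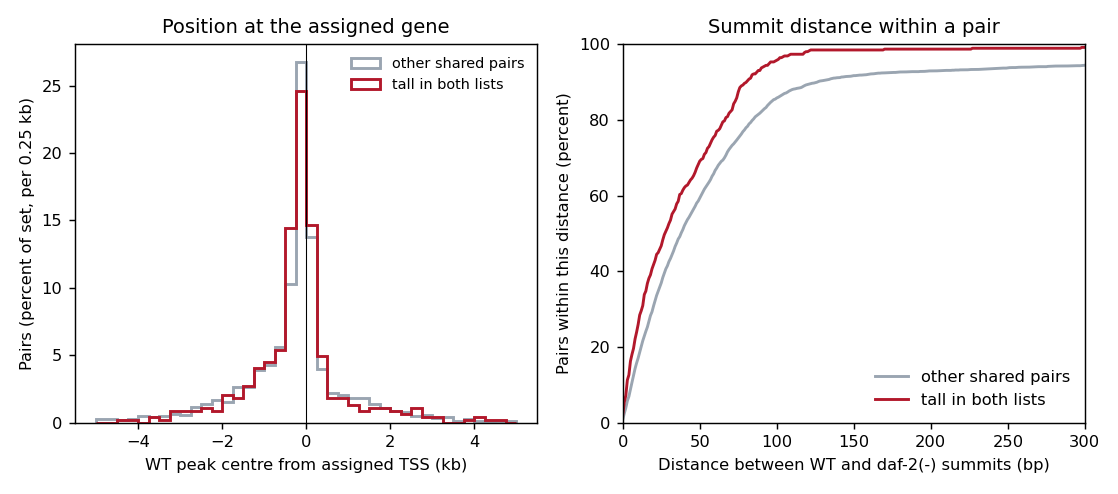
Left, the distance of the WT peak centre from the assigned TSS (x axis, kb, negative upstream, 5 kb shown on either side) with the percent of pairs per 0.25 kb (y axis). Right, the percent of pairs (y axis) whose WT and daf-2(-) summits lie within a given distance (x axis, bp), where the red line of the tall pairs runs above the grey line of the other shared pairs and reaches 95.7% against 85.8% at 100 bp.

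The chromosomes shared the tall sites in proportion to their shared peaks. Chromosome X held 117 of 443 (26.4%), and 26.4% of the other pairs (difference -0.01 points, -4.12 to 4.48). By chromosome, the share of shared pairs that were tall ran from 8.32% on V and 8.82% on IV to 10.8% on I, with Wilson intervals that overlapped one another. The middle of the chromosome, between 25% and 75% of the span from its first to its last WT summit of a shared pair, held 62.5% of tall pairs and 63.3% of the others.

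Summits of tall pairs lay closer together between strains than those of other pairs. Because the nearest summit decided among partners where a WT peak had more than 1, which held for 10.4% of tall and 3.51% of other pairs, the distances are also given for the 397 tall and 4124 other pairs with a single partner. The median distance between the WT and the daf-2(-) summit was 28 bp (95% interval 24 to 32) in tall pairs and 38 bp (36 to 40) in the others. Summits lay within 50 bp in 306 tall pairs (69.1%) and 59.3% of the others (difference 9.76 points, 5.08 to 14.1), and within 100 bp in 424 (95.7%) and 85.8% (9.96 points, 7.43 to 11.8). With a single partner the medians were 27 bp (22 to 32) and 38 bp (36 to 40), and the shares within 50 bp were 278 of 397 and 59.5% (difference 10.5 points, 5.61 to 15.1). Tags per peak moved with this, with a median of 479 in WT and 378 in daf-2(-) for tall pairs against 184 and 121 for the others, and their part in the summit distance was not tested. The displacement had no preferred side: the daf-2(-) summit was the farther downstream along the gene in 216 of the 434 tall pairs with any displacement (49.8%). The same gene was assigned in both lists in 405 tall pairs (91.4%) and in 92.9% of the others.

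Tall peaks were also long. The median width was 1256 bp in WT (95% interval 1179 to 1337) and 1127 bp in daf-2(-) (1078 to 1179), against 955 and 860 bp in the other pairs. Width comes from the same peaks as the height and is given without a test. Widths of 2 kb or more were seen for 102 tall WT peaks (23.0%, against 6.36%) and 73 of 443 tall daf-2(-) peaks (against 3.35%), and for both peaks of the pair in 64 (14.4%, against 2.36%). The WT peak overlapped more than 1 daf-2(-) peak in 46 tall pairs (10.4%, against 3.51%).

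The widest site was assigned to the non-coding gene R03E9.9 at chrX:6735058-6746130, beside mdl-1, a Mad-like bHLH factor gene. Its WT peak spanned 11073 bp and its daf-2(-) peak 10914 bp, with heights of 325 and 268. T28B11.21 on chromosome V followed with 10167 and 8003 bp, and here the summits were 2955 bp apart, the farthest of any tall pair. mak-1, a MAP kinase-activated kinase gene, had widths of 7637 and 2977 bp. At the other end were the tRNA gene C42D8.t1 with 479 and 446 bp, the piRNA gene 21ur-15059 with 540 and 597 bp, and Y17G7B.17 with 696 and 469 bp. A tall site could thus be narrow, and these 3 narrow sites had heights from 207 to 265 in WT.

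**Figure D3:**
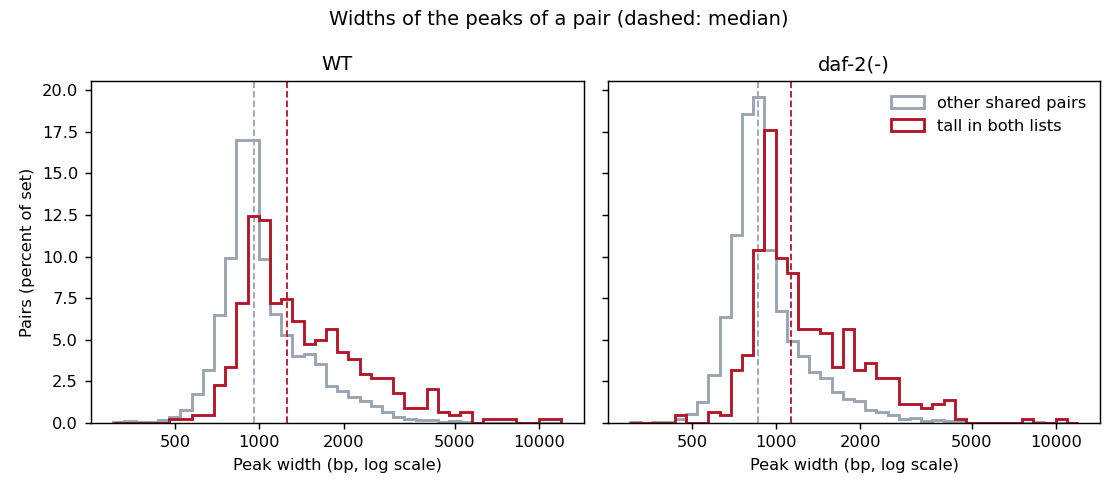
Width of the WT peak (left) and of the daf-2(-) peak (right) on a log axis in bp, as the percent of the 443 tall pairs (red) and of the 4274 other shared pairs (grey) in each bin, with dashed lines at the medians. The tall pairs sit to the right in both strains, with medians of 1256 and 1127 bp against 955 and 860 bp.

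The input background was derived as height divided by fold enrichment. It is therefore built in part from the height that chose the members, and is given as a description without a test. It was at least 1.25 times the list's minimum in 82 tall WT peaks (18.5%) against 12.3% of the others, a difference of 6.23 points. In daf-2(-) the difference had the other sign, with 15 tall peaks (3.39%) against 4.61%, or -1.22 points. The FDR of tall peaks had a median of 0.42% in WT, above the 0.19% of the other pairs, with a highest value of 3.7%, and it was 0 for every tall daf-2(-) peak. The part of these in the heights was not tested.

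The assigned genes were of the same kinds as elsewhere in the lists. Of the 443 pairs, 436 matched a gene of the RefSeq table, and 307 (69.3%, 64.9 to 73.4) were assigned to a protein-coding gene, against 66.6% of the other pairs (difference 2.71 points, -1.95 to 7.07). Genes annotated as ncRNA took 88 (19.9%) and piRNA genes 13 (2.94%). There were 9 snoRNA, 6 lncRNA, 4 tRNA, 4 pseudogene, 3 miRNA and 2 antisense RNA assignments. The 443 sites named 431 different genes through the WT list. Counting either list's assignment, 467 of the 4389 genes with a shared pair had a tall pair, which sets a background of 10.6% for the gene lists that follow.

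Genes of sugar and central carbon metabolism had tall sites at a share above the background at this limit. The list was written with earlier results of these data known, so the share and its interval are a description and no test. Of the 21 listed genes with a shared pair, 9 had a tall one (42.9%, 24.5 to 63.5), and the median smaller height over the list's pairs was 121 against 66 over all shared pairs. pck-1, the phosphoenolpyruvate carboxykinase gene of gluconeogenesis, had 284 in WT and 209 in daf-2(-), in a peak centred 58 bp upstream of the TSS. gsy-1, the glycogen synthase gene, had 253 and 186 at 706 bp upstream. fbp-1, which encodes fructose-1,6-bisphosphatase, another enzyme of gluconeogenesis, had 2 tall sites, with 259 and 182 at 1521 bp and 246 and 182 at 250 bp upstream.
icl-1, the glyoxylate cycle enzyme gene, was assigned to its site by the daf-2(-) list and the neighbour srh-2 by the WT list, with 252 and 182. mdh-1 (malate dehydrogenase) had 224 and 181, and pck-2, a second carboxykinase gene, had 255 and 177. pyk-1 (pyruvate kinase) had 186 and 168, enol-1 (enolase) 193 and 166, and cts-1 (citrate synthase) 230 and 155. The enzymes thus came from gluconeogenesis, glycolysis, the glyoxylate cycle and the citrate cycle.
Below the limit were nnt-1, the nicotinamide nucleotide transhydrogenase gene, with 145 and 161, aco-2 (aconitase) with 198 and 143, and tps-1 (trehalose 6-phosphate synthase) with 167 and 143. The list's daf-2(-) heights crowded between the limits, so its count rested on them: with heights of 100 or more 14 of 21 genes had such a pair against 26.4% of all genes, and with 200 or more only 1 of 21 (4.76%) did, pck-1, against 4.53%. Without peaks of 2 kb or longer it was 4 of 13 against 8.53%. With daf-2(-) heights scaled by aligned reads it was 2 of 21 (9.52%) against 6.20%, and with scaling by tags inside peaks 12 of 21 against 16.04%.

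Genes of fat metabolism and yolk had none. Of 32 such genes with a shared pair, 0 had a tall pair, and their tallest pair reached 144 in its weaker list. The upper bound of the 95% interval was 10.7%, which just includes the background of 10.6%. Cuticle collagens (0 of 14), lysozyme, lectin and saposin-like genes (0 of 12) and histones (0 of 11) had no tall pair either, with upper bounds of 21.5%, 24.2% and 25.9%, all above the background of 10.6%.

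Transcription factor genes took part at a share near the background or somewhat above it. The 6 factor families together had tall pairs at 20 of 128 genes (15.6%, 10.3 to 22.9), an interval that includes 10.6%. Among nuclear hormone receptors it was 9 of 70 (12.9%, 6.91 to 22.7). These were led by nhr-19 with heights of 332 and 283, nhr-48 with 275 and 233, nhr-32 with 219 in daf-2(-) and nhr-34 with 257 and 216. The other receptor genes were nhr-85, nhr-3, nhr-35, daf-12 and nhr-1, with daf-2(-) heights from 161 to 211.
Of 23 bHLH and bZIP genes, 5 had a tall pair (21.7%, 9.66 to 41.9, which includes the background of 10.6%): zip-1, hlh-30, xbp-1, mml-1 and hif-1. hlh-30, the TFEB orthologue that controls autophagy and lysosome genes, had 259 and 230 at 2379 bp downstream of its TSS. xbp-1, the factor of the unfolded protein response, had 265 and 191 at 263 bp downstream. mml-1, the Mondo factor gene, had 225 and 157, and hif-1, which encodes the hypoxia-inducible factor, had 216 and 150, exactly at the limit. These are genes for factors of stress and nutrient responses, and the list's genes without a tall pair were not examined for this.
The zinc-finger, T-box and SOX list had 5 of 21 (23.8%, 10.6 to 45.1, an interval that starts at the background). They were lin-13 (231 and 229), attf-3 (235 and 189), tbx-2 (219 and 159), zfp-1 (188 and 154) and lir-3 (201 and 152). For tbx-2 the WT list assigned the site to the piRNA gene 21ur-15343. Of 8 homeobox genes ceh-38 had a tall pair (181 and 150), and of the 4 forkhead and 2 GATA genes none had. daf-16 itself had a shared pair of only 56 and 37, centred 2141 bp upstream.

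**Figure D4:**
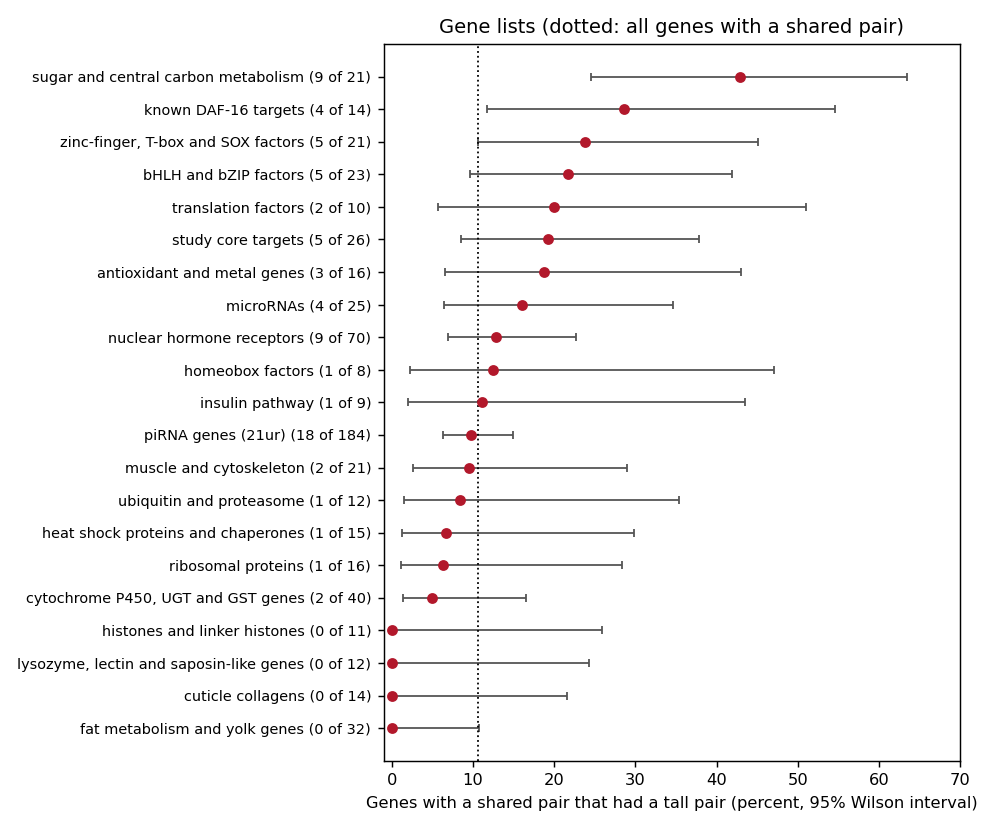
For each list with at least 8 genes that had a shared pair, the percent of these genes with a tall pair (x axis, points, bars for the 95% Wilson interval, counts beside each name), with the 10.6% of all such genes as a dotted line. On the deposited heights the interval of sugar and central carbon metabolism (24.5 to 63.5%) lies above the line, and that of the known DAF-16 targets begins at 11.7%, just above it. With daf-2(-) heights scaled by aligned reads, bcmo-2 alone of the known targets and 2 of 21 carbon metabolism genes stayed tall, beside 6.20% of all genes.

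Of the 9 insulin pathway genes with a shared pair, 1 had a tall one (11.11%, 1.99 to 43.5), which is near the background of 10.6%. It was akt-2. This gene encodes one of the kinases that phosphorylate DAF-16, and its site at chrX:14145352-14147398, 1325 bp upstream of the TSS, had 280 in WT and 254 in daf-2(-). The receptor gene daf-2 had pairs of 96 and 59 and of 63 and 46.

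Genes listed as known DAF-16 targets were divided by the limit. The list includes genes that the study chose for qPCR, bcmo-2 and sqrd-1 among them, and is not independent of these samples. Of 14 with a shared pair, 4 had a tall one (28.6%, 11.7 to 54.6): bcmo-2 with 237 and 218, icl-1 with 252 and 182, sqrd-1 with 207 and 176, and sod-1, the cytosolic superoxide dismutase gene, with 235 and 161. This count rests on the deposited heights. Scaling by aligned reads lowers the daf-2(-) heights, and with it only 2 of 21 carbon metabolism genes kept a tall pair. Of that list pck-1 (209) and gsy-1 (186) stood above icl-1 (182) in daf-2(-) height. Thus icl-1, sqrd-1 and sod-1 fell below the limit, which left bcmo-2, beside 6.20% of all genes. The list was not recomputed with scaling by tags inside peaks. sod-3, the mitochondrial superoxide dismutase gene widely used as a DAF-16 reporter, had 126 in WT and 181 in daf-2(-), and mtl-1, a metallothionein gene, had 138 and 153. On the deposited heights both reached 150 in daf-2(-) and missed it in WT. Among the study's own core targets, which were chosen in part on these samples and are no independent evidence, 5 of 26 had a tall pair (19.2%, 8.51 to 37.9, from the 36 names used here, which are not the whole of the study's set): C34D10.2, F09F7.6, bcmo-2, E01G4.3 and ZC410.5.
Of the antioxidant and metal genes 3 of 16 had a tall pair (18.75%, 6.59 to 43.01). They were sod-1, the peroxiredoxin gene prdx-2 with 243 and 223 at 17 bp upstream, and the glutathione peroxidase gene gpx-6 with 201 and 183 at 15 bp upstream. Among heat shock proteins and chaperones only hsp-70 of 15 did (6.67%, 1.19 to 29.8). It had 213 in WT and 231 in daf-2(-), with the daf-2(-) peak the taller on the deposited heights. For cytochrome P450, UGT and GST genes, which act in detoxification, the count was 2 of 40 (cyp-13A5 and ugt-61).

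Small RNA genes were near the background. Of 25 microRNA genes with a shared pair, 4 had a tall one, at 3 sites. mir-34, a microRNA gene on chromosome X, had 318 and 263. A site at the neighbouring mir-55 and mir-56 had 265 and 232, and mir-53 on chromosome IV had 249 and 180. Of 184 piRNA genes 18 had one (9.78%, 6.28 to 14.9), and the tallest, 21ur-6602, had 312 and 274. piRNA genes are short and lie in dense arrays on chromosome IV, so the nearest TSS there need not be the gene that the peak belongs to.

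Some tall sites came in groups. With neighbours joined when within 10 kb, 75 of 443 tall pairs (16.9%) fell in 32 groups, and 5 groups held 3 or more. No matching share was computed for the other shared pairs, so whether tall sites group more than shared sites do was not tested. The largest was on chromosome IV (chrIV:5582037-5608104), where 6 tall sites spanned 26.1 kb, with 25.02 kb between the outermost summits, around the forkhead gene fkh-7. They were assigned to linc-50 and to 5 piRNA genes, with WT heights of 157, 243, 274, 295, 312 and 218 and daf-2(-) heights of 153, 218, 232, 249, 274 and 184. The pair assigned to fkh-7 itself was low, at 73 and 56.
On chromosome X (chrX:8016898-8029566) 5 tall sites were assigned to C34D10.2, C34D10.4 and C34D10.1, with WT heights from 198 to 320 and daf-2(-) heights from 152 to 283. A group of 4 on chromosome I lay at T28F4.4, T28F4.5, T28F4.6 and C26C6.12. daf-5, which encodes the Sno/Ski partner of the dauer TGF-β pathway, had all 3 sites of its group on chromosome II, at 2610, 6627 and 7668 bp upstream, with WT heights of 231, 209 and 200 and daf-2(-) heights of 165, 184 and 159. hlh-30 was in the remaining group of 3, on chromosome IV, with W02C12.4 and F35F11.3. Another shared pair lay within 10 kb of 76.1% of tall pairs and of 72.1% of the others (difference 3.96 points, -0.43 to 7.94).

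**Figure D5:**
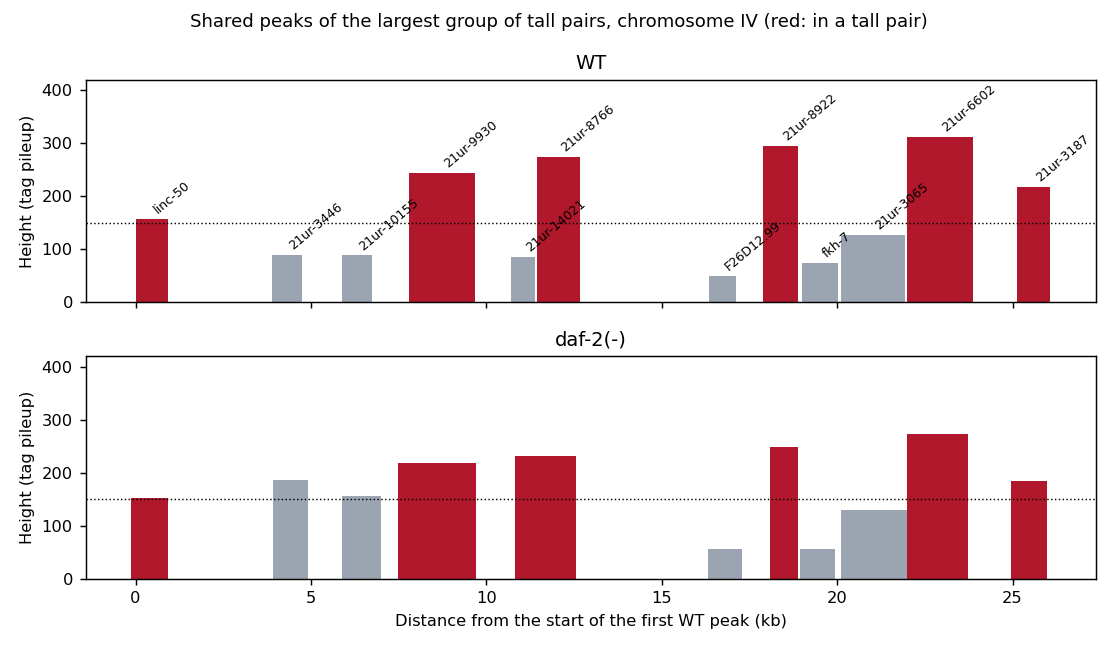
Shared peaks of the largest group of tall sites, on chromosome IV, drawn as bars over their width (x axis, kb from the start of the first WT peak) with the height of the summit (y axis, tag pileup) in WT (top, with the assigned gene) and daf-2(-) (bottom). Peaks of the 6 tall pairs are red and other shared peaks grey, and the dotted line marks 150.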

How the data were processed

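Peak lists of DAF-16 ChIP-seq in WT and daf-2(-) worms were analysed, 1 ChIP library per strain, with groups taken from the sample labels. Per the submitters' processing notes and the study's methods, the authors used CASAVA 1.8.2, Cutadapt, Bowtie 0.12.7 against genome WS230 and MACS 1.4.2 on each ChIP library against its input, at an FDR limit given as a percent, and, by the methods, assigned summits to the nearest TSS. Checked against strand and gene ends, the deposited distances all run from the peak centre (to 1 bp), with a summit match in only 1.91% (WT) and 2.36% (daf-2(-)), so positions are those of centres unless stated. The deposited count is the number of tags inside a peak. The deposited height of the summit is a pileup signal. The authors' fold enrichment is a ratio of the summit over local background. The deposited FDR is in percent, and a deposited MACS p-value score of the daf-2(-) list was not used. A tag density table has 1 value column whose name matches no sample, and it was not used. The DAF-16-null strains enter only through the peaks that were left out.

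Pairs, medians with order-statistic intervals, shares with 95% Wilson intervals and differences with Newcombe intervals were computed with Python 3.11.15, numpy 2.4.6, pandas 2.3.3 and scipy 1.17.1, and the pairing was tested on simulated peaks. No filter on low values was applied. Background is height divided by fold enrichment. Gene classes and neighbouring coding genes came from RefSeq by name, without its coordinates, since the build differs. The genes named are the 15 tallest pairs by the smaller height, up to 4 per gene list, the 3 pairs just inside and outside the limit, the 3 widest and narrowest, the 5 with the largest and smallest ratio, those of lowest fold and genes with several tall pairs, and all tall members of the lists discussed. Members and gene lists were chosen with earlier results of these data known. The limits, pairing, widths and assignments were varied as alternatives, and so was the scaling of heights, by the aligned reads that the study lists for each ChIP library or by the tags inside peaks. A FOXO motif search in promoters was not run, as no sequence of the peaks was used here.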

Additional observations from a re-analysis of the deposited data

How the results depend on the processing

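Of 99 values recomputed under other settings, 80 stayed within their intervals or within 1.5 times the count and 19 moved. The number of tall pairs was 1133 with heights of 100 or more, 185 with 200 or more and 767 when height was replaced by a fold enrichment of at least 15. The median WT width was 1095 bp with heights of 100 or more, 1119 bp with the fold limit and 1086 bp without peaks of 2 kb or longer, and the median daf-2(-) width was 1007, 1037 and 1027.5 bp in the same order and 1245 bp with heights of 200 or more. The carbon metabolism share was 66.7% with heights of 100 or more and 4.76% with 200 or more. The fat metabolism share was 15.6% with 100 or more. The share of all genes was 26.4% with 100 or more and 4.53% with 200 or more. With daf-2(-) heights scaled by aligned reads there were 250 tall pairs and a carbon metabolism share of 9.52%, against 6.20% of all genes. With scaling by tags inside peaks there were 677 tall pairs with a median WT width of 1177 bp and a median daf-2(-) width of 1065 bp. The share at the TSS was 49.4% with a window of 1 kb. Taking the highest 10% of each list (185 or more in WT, 131 or more in daf-2(-)), an alternative chosen after seeing the data, gave 471 pairs and 10 of 21 carbon metabolism genes against 11.3% of all genes, and the scalings, the gene list alternatives and the restriction to single partners were also chosen after seeing the data. The motif search and its alternatives were not run.

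No paired analysis was possible because no group held more than 1 library. Depth is limited to what the lists hold: the heights are not scaled for depth, the treatment of duplicate tags is not known, peaks below the calling limit are not listed, and intervals cover counting error over peaks or genes that are not independent of their neighbours.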

Other observations

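By the ratio of the deposited heights, whose side of 1 depends on the scaling, the tall sites that ranked highest for daf-2(-) against WT were Y1A5A.2 with 159 in WT and 190 in daf-2(-), F47B8.2 with 186 and 218, T27E4.1 with 163 and 189, sop-2, a Polycomb-like regulator of Hox genes, with 185 and 210, and the reticulon gene ret-1 with 156 and 177. At the other end were R03D7.2 with 297 and 175, CC8.2 with 254 and 151, F46G10.1 with 274 and 172, H37A05.6 with a ratio of 0.63 and sdz-19 with 260 and 166. CC8.2 had a second tall site, with 260 and 212.

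A few genes of protein synthesis, muscle and the cytoskeleton had a tall site. The counts were 2 of 10 translation factor genes (20.0%, 5.67 to 51.0) and 2 of 21 muscle and cytoskeleton genes (9.52%, 2.65 to 28.9). Both intervals include the background of 10.6%. ife-3, an eIF4E cap-binding protein gene, had 288 in WT and 242 in daf-2(-), iff-2, an eIF5A gene, had 241 and 191, and rps-28, the only 1 of 16 ribosomal protein genes, had 254 and 236 at 2421 bp upstream. unc-60, the cofilin gene, had 212 and 163, and pat-4, the integrin-linked kinase gene, had 155 and 153. The E2 enzyme gene ubc-25 had 233 and 175. In all, 11 genes had more than 1 tall pair, among them M60.4 with 308 and 270 and with 289 and 237, and the axon regeneration kinase gene dlk-1 with 226 and 171 and with 201 and 157. idh-1, an isocitrate dehydrogenase gene that was not on the carbon metabolism list and was picked after its values were seen, had 239 and 168.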
